A study of Mus musculus with 6 samples.

Results

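The genes described here encode the integrins, the laminins and a set of proteins that join them to one another and to the cytoskeleton. They were selected by symbol from the 24421 genes listed in the count tables, as genes whose names begin with Itga, Itgb, Lama, Lamb or Lamc and a digit (35 genes), without the leukocyte subunits Itgam, Itgax and Itgal, and as 10 genes named singly (Vcl, Tln1, Tln2, Ilk, Parva, Pxn, Zyx, Nid1, Nid2 and Hspg2). This gave 45 genes, namely 12 integrin alpha subunits, 9 integrin beta subunits, 11 laminin chains, 3 linkers of the basement membrane, 7 intracellular adhesion proteins and 3 genes (Itgb1bp1, Itgb1bp2 and Itgb3bp) whose symbols match but which are not integrin subunits. The rule used names and no measured value, though it was written with earlier results of these data known. Itgav, which has no digit after its stem, was not selected and is described with the ligands and receptors.

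RNA was sequenced from the gastrocnemius and plantaris (GP) muscle of 6 mice, 3 per group and male by the study's methods, with the strain background labelled B6C3F1 (the strain of the edited zygotes in the methods, whose founders were then bred to C57BL/6N), at 5 months of age and 3 months after tamoxifen. Mice of the group labelled Ctrl were Net39 fl/fl without Cre, and those of the group labelled cKO were HSACreERT2;Net39 fl/fl, so both groups carried the floxed Net39 allele and both were given tamoxifen. In the study's methods the human skeletal actin promoter drives the tamoxifen-inducible Cre in skeletal muscle fibers, so the vessels, fibroblasts, nerve and immune cells of the same muscle keep the gene in both groups. Net39 is a protein of the nuclear envelope of muscle.

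Net39 itself went against the labels. Net39 (listed under its older symbol Ppapdc3) was read 310, 321 and 217 times where the label was Ctrl and 5365, 4340 and 6080 times where it was cKO. In counts per 1000000 counts of the library after scaling (CPM), its mean level rose from 7.20 ± 1.10 (SD, n = 3) under the label Ctrl to 134 ± 19.7 under the label cKO, where a deletion would lower it. The study reports reduced Net39 in cKO muscle by RNA-Seq, the opposite of these labelled counts. The labels were kept as given, libraries are called Ctrl 1 to 3 and cKO 1 to 3 by their labels alone, and every direction below is that of the labelled groups and could be the reverse of that of the genotypes. Total counts were 33860001 to 38201728 per library labelled Ctrl and 39191239 to 48839910 per library labelled cKO. Markers of muscle fibers were high in every library, with summed levels of 111800 to 131800 CPM in the labelled Ctrl libraries and 163700 to 209700 CPM in the labelled cKO libraries, and 2 of the 10 were higher under the label Ctrl and 6 under the label cKO (all genes 11.8% and 12.6%). The 2 calls were both lost without Ctrl 1, Ctrl 2 or cKO 1, and the 6 were all lost without Ctrl 2, cKO 1 or cKO 3. Markers of slow fibers summed to 8481 to 14600 CPM and 446.5 to 3873 CPM. The study reports a larger share of type I (slow fiber) nuclei in cKO muscle by single-nucleus RNA-Seq, a measure of nuclei and not of these sums.

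Integrins are receptors of the cell surface built from one alpha and one beta subunit, which bind proteins of the extracellular matrix outside the cell and, through talin, vinculin and kindlin, the actin cytoskeleton inside it. Laminins are trimers of an alpha, a beta and a gamma chain that form the sheet of the basement membrane around each muscle fiber, where nidogens and perlecan tie them to collagen IV. In muscle the integrin formed by Itga7 and Itgb1 binds the laminin that contains Lama2, beside the dystrophin-glycoprotein complex, and loss of either Itga7 or Lama2 causes muscular dystrophy.

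Of the 45 genes, 44 had at least 1 count, and 42 passed the expression filter and were tested. Itgb2l, a relative of Itgb2, had 0 counts in all libraries, which allows up to 3 counts in each, Lama1 had 1 count in cKO 2 and none elsewhere, and Itgb8, a partner of Itgav, had 8 to 13 counts in the labelled Ctrl libraries and 3 to 6 in the labelled cKO libraries. These 3 genes were not tested. Summed over the genes, the level was 2761, 2867 and 2932 CPM in Ctrl 1, 2 and 3 and 2591, 2518 and 2537 CPM in cKO 1, 2 and 3, and the groups did not overlap.

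At an adjusted p under 0.05 in edgeR's quasi-likelihood test, 14 of the 42 tested genes (33.3%) were higher in the labelled Ctrl libraries, against 11.8% of all 14180 genes tested, and 3 (7.14%) were higher in the labelled cKO libraries, against 12.6%. In either direction these were 17 genes, against 24.4% of all genes. Among the 14 were Itga9, Lamb3, Itga5, Itgb2, Itgb4, Itgb7, Lamb2, Zyx, Parva, Itgb1bp2, Itga7, Itgb1 and Itgb6, and the 3 were Itga4, Lamc3 and Itgb5. With a fold change over 2 as well, 4 genes were higher in the labelled Ctrl libraries (Itga9, Lamb3 and Itga5 among them, against 3.92% of all genes) and 2 in the labelled cKO libraries (Itga4 and Lamc3, against 2.13%). The median log2 fold change of labelled cKO over labelled Ctrl was -0.17 over the tested genes and -0.015 over all genes. The groups did not overlap for 20 genes that were higher in every labelled Ctrl library and for 6 that were higher in every labelled cKO library, against 21.9% and 22.0% of all genes. For each single gene with 3 libraries against 3 an exact two-sided permutation test cannot go below p = 0.1, the value of each of the 17 genes that passed.

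These counts depended on the scaling and on single libraries. With libraries scaled to their total counts instead of by trimmed mean of M values (TMM), 23 genes were higher in the labelled Ctrl libraries (all genes 28.7%) and 1, Itga4, in the labelled cKO libraries (all genes 4.75%), with the median of all genes at -0.27 and that of the tested genes at -0.43. With 1 library left out at a time, fewer genes passed in most fits, as they did among all genes. Without Ctrl 1, 2 or 3, the genes higher in the labelled Ctrl libraries numbered 4, 7 and 10 (all genes 5.63%, 6.57% and 10.6%), and those higher in the labelled cKO libraries 0, 0 and 2 (all genes 5.33%, 6.06% and 11.8%). Without cKO 1, 2 or 3, they numbered 6, 15 and 5 (all genes 6.18%, 12.5% and 5.46%) and 1, 0 and 0 (all genes 6.2%, 12.3% and 5.34%). With a fold change over 2 as well, the 4 genes became 2 without Ctrl 3, and the 2 genes became 0 without any library other than Ctrl 3. Itga9 and Itga5 passed in each of these 6 fits, and Zyx in 5.

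**Figure D1:**
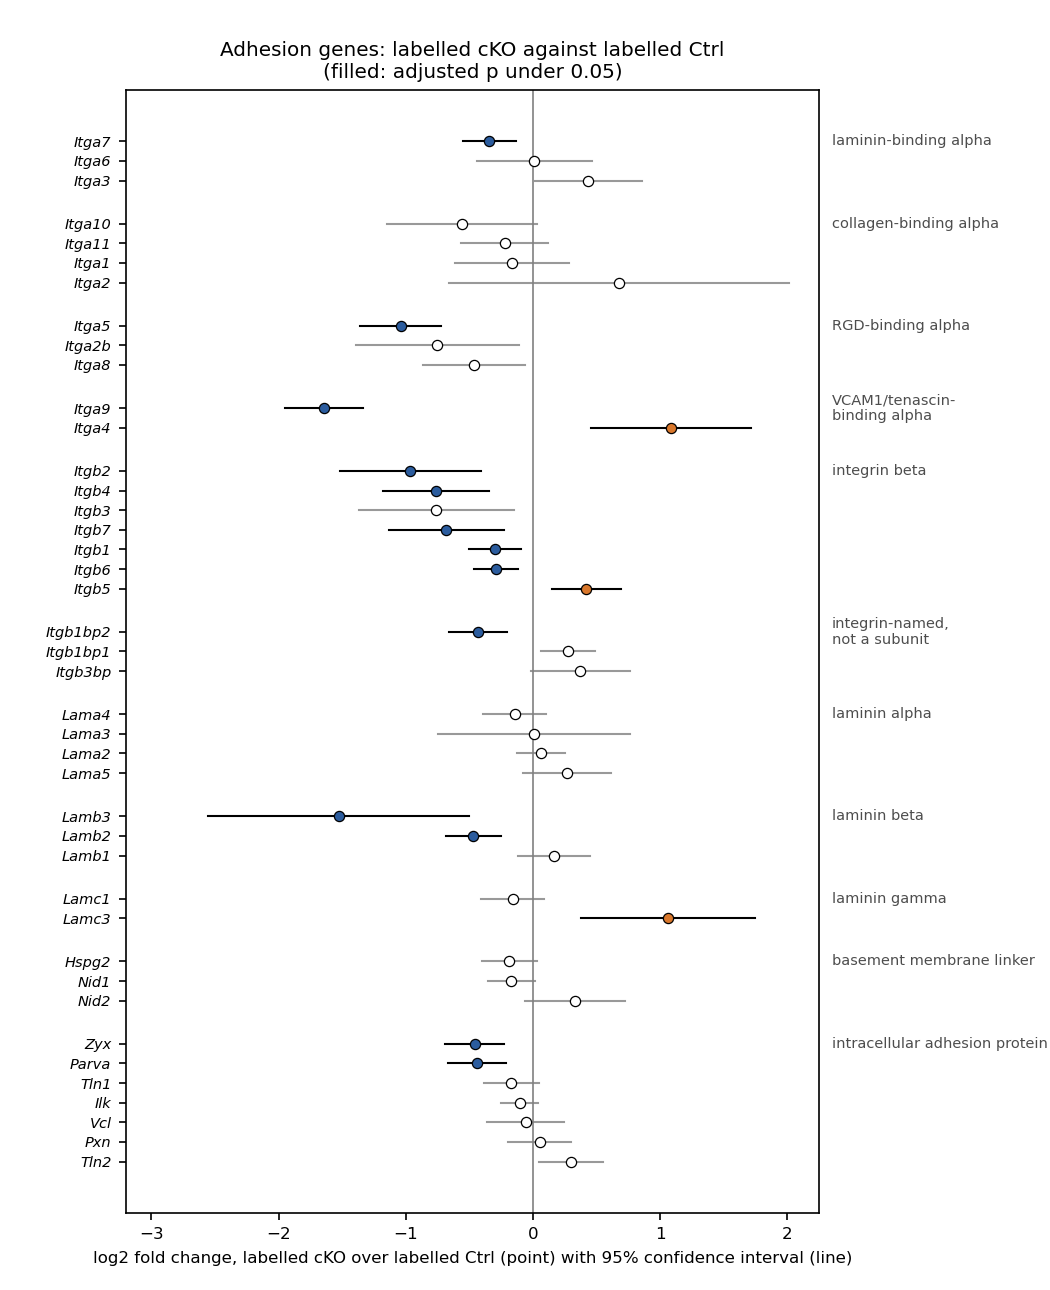
Log2 fold change of labelled cKO over labelled Ctrl for tested genes, by role, as points with 95% confidence intervals from edgeR as lines. Filled points passed an adjusted p of 0.05 (blue, higher under the label Ctrl; orange, higher under the label cKO). Of the genes shown that passed, Itga9 lies farthest left at -1.65 and Itga4 farthest right at 1.08, and the 4 collagen-binding integrin alpha subunits and the laminin alpha chains hold no gene that passed.

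Among the 19 tested integrin subunits, 8 (42.1%, all genes 11.8%) were higher in the labelled Ctrl libraries and 2 (10.5%, near the 12.6% of all genes) in the labelled cKO libraries. The beta subunits held most of these, since 5 of the 7 tested (Itgb1, Itgb2, Itgb4, Itgb6 and Itgb7) were higher in the labelled Ctrl libraries and 1 (Itgb5) in the labelled cKO libraries. Of the alpha subunits, 1 of 3 that bind laminin, 1 of 3 that bind the RGD motif of fibronectin and similar ligands, and both of those that bind VCAM1 and tenascin or fibronectin passed, the last pair in opposite directions, while none of the 4 collagen-binding subunits did.

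Itga7, the main laminin-binding alpha subunit of mature muscle fibers (mm10, chr10:128933818-128958282), measured 157, 174 and 157 CPM in Ctrl 1, 2 and 3 and 138, 128 and 119 CPM in cKO 1, 2 and 3. Every library labelled cKO was below every labelled Ctrl library, by a log2 fold change of -0.34 (SE 0.09, edgeR adjusted p = 0.0306), or 1.27-fold. Itgb1, the beta subunit that it pairs with and that most integrins share (chr8:128685654-128733200), measured 291, 312 and 319 CPM and 232, 259 and 258 CPM, again with no overlap (-0.30, SE 0.09, adjusted p = 0.0432). The log2 ratio of Itga7 to Itgb1 within a library was -0.92 ± 0.09 (SD, n = 3) and -0.96 ± 0.19, and the groups overlapped. Both calls were lost on leaving out single libraries, that of Itga7 without Ctrl 1, Ctrl 2 or cKO 3 (adjusted p up to 0.106) and that of Itgb1 without each library other than cKO 2 (up to 0.128). The slow fiber markers, whose part in this was not tested, had a lower sum in every labelled cKO library as given above, and 3 of the 8 (37.5%, all genes 11.8%) were higher in the labelled Ctrl libraries (Myl2, Tnnt1 and Atp2a2). All 3 calls were lost without Ctrl 1, Ctrl 2 or cKO 1, while Myh7, Tnnc1 and Tnni1 passed as well without cKO 2 or cKO 3.

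The other laminin-binding alpha subunits did not pass. Itga6, a partner of Itgb1 and of Itgb4, measured 31.9, 27.6 and 47.4 CPM in the labelled Ctrl libraries and 32.7, 38.6 and 36.3 CPM in the labelled cKO libraries (0.01, 95% CI -0.44 to 0.46). Itga3, a laminin receptor best known in epithelia, measured 8.71, 8.73 and 9.71 CPM and 11.2, 15.7 and 9.77 CPM. Its groups just failed to overlap, with the library cKO 3 close to Ctrl 3, and its log2 fold change of 0.44 missed the threshold (95% CI 0.02 to 0.86, adjusted p = 0.119). Itgb4, which pairs with Itga6 alone and links laminin to intermediate filaments in epithelia and Schwann cells, measured 13.5, 11.97 and 16.1 CPM and 8.66, 9.48 and 6.32 CPM. Its log2 fold change was -0.76 (SE 0.18, adjusted p = 0.0225), lost without Ctrl 1, Ctrl 3 or cKO 1. Markers of Schwann cells summed to 194 to 259 CPM in the labelled Ctrl libraries and 95.1 to 149 CPM in the labelled cKO libraries, and 2 of the 9 tested (22.2%, all genes 11.8%) were higher in the former. In bulk muscle, fewer cells of a type and less RNA per cell cannot be told apart.

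The fibronectin receptor subunit Itga5 (chr15:103344286-103366763) measured 33.6, 31.8 and 44.6 CPM in Ctrl 1, 2 and 3 and 16.9, 17.9 and 18.6 CPM in cKO 1, 2 and 3. The lowest library labelled Ctrl was well above the highest labelled cKO, and the 2.06-fold difference (log2 -1.04, SE 0.14, adjusted p = 0.00404) passed without any 1 library (adjusted p at most 0.02). Set against Itga7 in the same library, the log2 ratio of Itga7 to Itga5 went from 2.16 ± 0.32 to 2.85 ± 0.18 with no overlap (exact two-sided permutation p = 0.1, adjusted over 12 ratios p = 0.2). Itga8, which binds nephronectin, and Itga2b, the platelet subunit, were also higher in every labelled Ctrl library but did not pass (-0.46, adjusted p = 0.0898, and -0.75, adjusted p = 0.0859). Without cKO 2, Itga2b passed (-1.04, adjusted p = 0.0327).

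The subunits Itga9 and Itga4, which both pair with Itgb1 and both bind VCAM1, differed in opposite directions. Itga9, a receptor for tenascin and osteopontin too (chr9:118606690-118901003), measured 31.4, 29.3 and 36.8 CPM in the labelled Ctrl libraries and 11.97, 9.40 and 9.79 CPM in the labelled cKO libraries. This was the integrin subunit with the lowest p and a 3.13-fold difference (log2 -1.65, SE 0.13, adjusted p = 0.000897), and it passed without any 1 library. Itga4, a fibronectin and VCAM1 receptor of leukocytes and other cells (chr2:79255426-79333123), measured 3.98, 3.93 and 7.90 CPM and 11.0, 11.6 and 10.9 CPM. All libraries labelled cKO were above those labelled Ctrl, with Ctrl 3 nearest to them, and the 2.12-fold difference (log2 1.08, SE 0.27, adjusted p = 0.0271) was lost without any library other than Ctrl 3 (adjusted p up to 0.0888).

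Itgb2 and Itgb7 are integrin subunits of leukocytes. Itgb2 measured 4.32, 3.38 and 5.61 CPM in the labelled Ctrl libraries and 1.81, 2.62 and 2.36 CPM in the labelled cKO libraries (log2 fold change -0.96, SE 0.24, adjusted p = 0.0263), and Itgb7 measured 3.50, 2.63 and 3.45 CPM and 1.72, 2.29 and 1.95 CPM (-0.68, SE 0.19, adjusted p = 0.0411). Both were low and both were apart between the groups. Their calls were lost without Ctrl 1, Ctrl 3, cKO 1 or cKO 3 and, for Itgb7, without Ctrl 2 too (adjusted p up to 0.131). Of 10 markers of macrophages and leukocytes 6 were higher in the labelled Ctrl libraries (all genes 11.8%) and none in the labelled cKO libraries (all genes 12.6%), with sums of 149 to 177 CPM and 70.9 to 104 CPM, and their part in these results was not tested. Of these calls, Adgre1, Cd68, Itgax and Mrc1 were all lost without Ctrl 3, cKO 1 or cKO 3, and Csf1r without Ctrl 2 or cKO 3. Only that of Lyz2 held without any 1 library. Itga4, which leukocytes also express, differed in the opposite direction to these markers.

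Itgb5 and Itgb6 both pair with Itgav and differed in opposite directions. Itgb5 measured 96.5, 88.6 and 86.3 CPM in the labelled Ctrl libraries and 103.5, 138.3 and 121.6 CPM in the labelled cKO libraries (log2 0.42, SE 0.12, adjusted p = 0.0381). It was the only beta subunit to pass with a higher level in the labelled cKO libraries, and its call was lost without any library other than cKO 1 (adjusted p up to 0.12) and when libraries were scaled to total counts (0.18, adjusted p = 0.392). Itgb6 measured 61.3, 68.0 and 59.8 CPM and 50.9, 51.7 and 52.2 CPM, close among the labelled cKO libraries (-0.29, SE 0.07, adjusted p = 0.0306). That call was lost without Ctrl 1, Ctrl 2, cKO 1 or cKO 3. Itgb3, the vitronectin receptor and platelet beta subunit, was higher in every labelled Ctrl library, at 2.75 to 5.17 CPM against 2.00 to 2.39 CPM, and missed the threshold (-0.76, adjusted p = 0.0719).

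None of the collagen receptors passed. Itga1 measured 8.25 to 13.0 CPM in the labelled Ctrl libraries and 7.86 to 9.45 CPM in the labelled cKO libraries, Itga11 measured 7.71 to 11.1 CPM and 7.43 to 8.39 CPM, and Itga10 measured 2.87 to 5.72 CPM and 2.84 to 3.22 CPM. Itga2 lay under 1.1 CPM in all libraries, and its interval was wide (log2 0.68, 95% CI -0.66 to 2.02). Groups overlapped for all of these subunits. Itga10 passed without Ctrl 3 (-0.79, adjusted p = 0.0181), and 33.5% of its exon length overlaps another gene on the same strand, so its counts are uncertain.

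**Figure D2:**
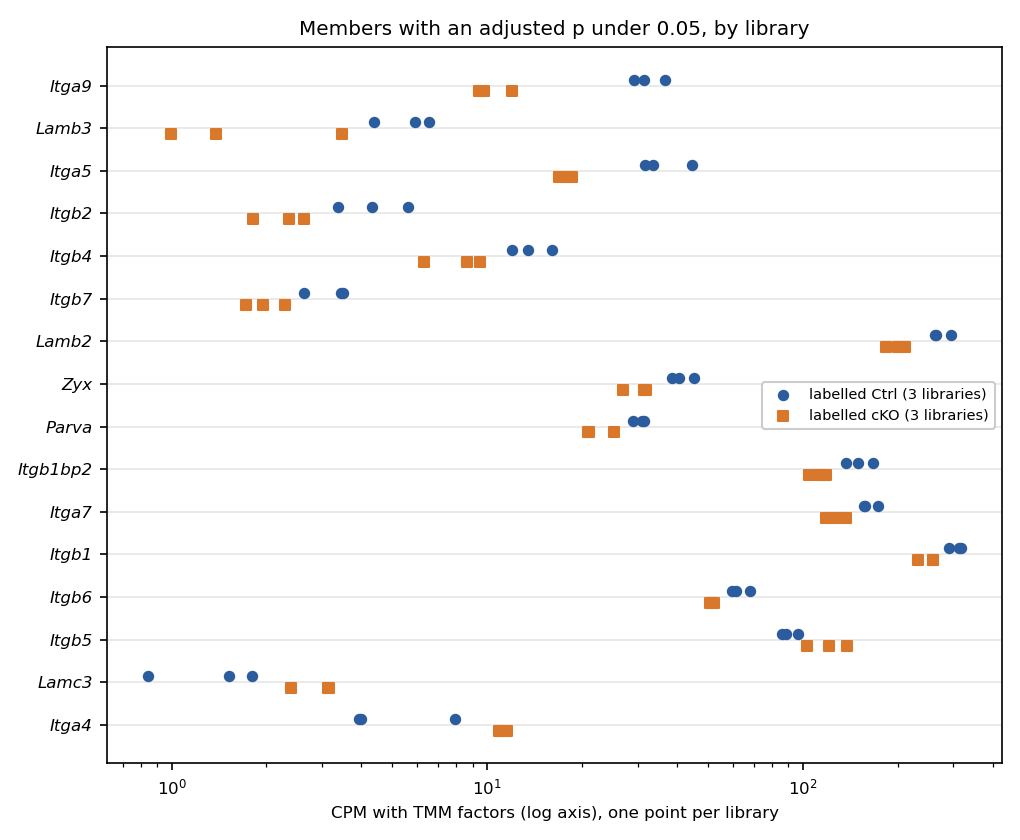
Level in CPM on a log axis in each of the 6 libraries for genes that passed, with 1 point per library (blue circles labelled Ctrl, orange squares labelled cKO). Points of the groups do not overlap for any gene shown, and the gap is wide for Itga9, at 29.3 to 36.8 CPM against 9.40 to 11.97 CPM.

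The genes Itgb1bp1, Itgb1bp2 and Itgb3bp share the integrin stem by name. Itgb1bp2, melusin, which binds the tail of Itgb1 and is made in muscle, had the highest mean level per length of the genes selected here in both groups, at 84.2 ± 8.31 CPM per kb of exons (SD, n = 3) in the labelled Ctrl libraries and 62.5 ± 3.83 CPM per kb in the labelled cKO libraries, close to Itgb1 at 75.3 ± 3.51 and 61.2 ± 3.81 CPM per kb, which was the higher of the pair in Ctrl 3, cKO 2 and cKO 3. Its 6 libraries measured 167, 150 and 137 CPM and 119, 114 and 105 CPM (log2 -0.43, SE 0.10, adjusted p = 0.0207), with no overlap. The call was lost without Ctrl 1, Ctrl 2, cKO 1 or cKO 3 (adjusted p up to 0.08). Itgb1bp1, which competes with talin for the same tail, measured 15.7 to 18.8 CPM and 20.9 to 21.7 CPM and did not pass (0.28, adjusted p = 0.067), with 16.9% of its exon length shared with Asap2 and Cpsf3 on the opposite strand. Itgb3bp, a protein of the centromere, measured 2.20 to 2.66 CPM and 2.78 to 3.54 CPM and did not pass either (0.37, adjusted p = 0.144).

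Among laminins, 3 of the 10 tested chains were higher in the labelled Ctrl libraries (30.0%, all genes 11.8%, Lamb3 and Lamb2 among them) and 1 in the labelled cKO libraries (Lamc3, near the 12.6% of all genes), and none of the 4 tested alpha chains passed. Compared per length, as CPM per kb of exons, Lamb2 and Lamc1 were the most abundant chains, at 45.2 ± 3.04 (SD, n = 3) and 22.4 CPM per kb in the labelled Ctrl libraries and 32.7 ± 2.34 and 20.04 CPM per kb in the labelled cKO libraries. The alpha chains Lama5 (4.81 and 5.79 CPM per kb), Lama2 (3.35 and 3.50) and Lama4 (3.10 and 2.80) and the beta chain Lamb1 (3.80 and 4.26) came next. Lamb3, Lama3 and Lamc3 were lower still, at 0.849, 0.332 and 0.228 CPM per kb in the labelled Ctrl libraries and 0.296, 0.334 and 0.476 CPM per kb in the labelled cKO libraries. Lamb3 and Lamc3, which passed with a fold change over 2, were thus among the least abundant chains.

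**Figure D3:**
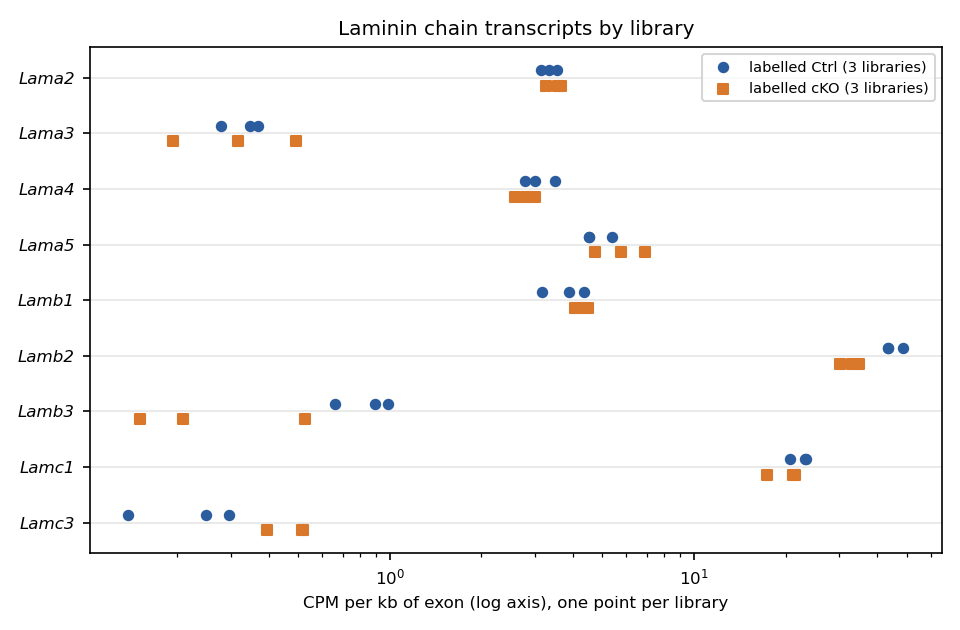
Level per length, in CPM per kb of exons on a log axis, of tested laminin chains, with 1 point per library (blue circles labelled Ctrl, orange squares labelled cKO). Lamb2 is the highest laminin chain in both groups, the means of Lamb3 are 0.849 and 0.296 CPM per kb, and the groups overlap for Lama2, at means of 3.35 and 3.50.

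The alpha chains gave overlapping groups. Lama2, the alpha chain of the muscle basement membrane (chr10:26980036-27619758), measured 54.7, 58.0 and 51.4 CPM in Ctrl 1, 2 and 3 and 58.3, 53.5 and 59.7 CPM in cKO 1, 2 and 3 (log2 0.06, 95% CI -0.12 to 0.25, adjusted p = 0.595). The interval is narrow and includes 0, while the same gene gave -0.19 when libraries were scaled to total counts. Lama4, a chain of vessels and the neuromuscular junction, measured 33.5, 36.3 and 42.3 CPM and 33.9, 36.3 and 31.2 CPM (-0.14, 95% CI -0.40 to 0.11). Lama5, found in vessels and at the neuromuscular junction, measured 51.5, 61.3 and 51.4 CPM and 78.4, 53.6 and 65.7 CPM (0.27, 95% CI -0.08 to 0.61), with cKO 2 within the range of the labelled Ctrl libraries. Lama3, which belongs to epithelial laminin, measured 2.09 to 5.27 CPM over all libraries (0.01, 95% CI -0.75 to 0.76).

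Lamb3 encodes a beta chain of the laminin of epithelial basement membranes, to which Lama3 also belongs. Lamb3 (chr1:193207699-193343878) measured 5.93, 6.54 and 4.38 CPM and 1.38, 3.48 and 1.00 CPM. It was apart between groups, with cKO 2 close to Ctrl 3 (log2 -1.53, SE 0.44, adjusted p = 0.0428), and passed in the fit without cKO 2, where its log2 fold change was -2.26, but in none of the other 5 (adjusted p up to 0.128). Lama3 had overlapping groups, as given above. Lamc3, a gamma chain, measured 0.843, 1.52 and 1.81 CPM and 2.40, 3.14 and 3.16 CPM (1.06, SE 0.29, adjusted p = 0.037), and this call was lost without any library other than Ctrl 3 (adjusted p up to 0.112) and under scaling to total counts (0.82, adjusted p = 0.0715).

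Lamb2, the beta chain concentrated at the neuromuscular junction and present in vessels (chr9:108479736-108490530), measured 264.9, 296.3 and 263.7 CPM in Ctrl 1, 2 and 3 and 201.0, 211.6 and 183.5 CPM in cKO 1, 2 and 3. All libraries labelled cKO were lower, by a log2 fold change of -0.47 (SE 0.09, adjusted p = 0.0134), lost without Ctrl 2 or cKO 3 (adjusted p up to 0.0534). Lamb1, the beta chain of most embryonic and adult basement membranes, measured 31.3, 38.4 and 43.2 CPM and 44.4, 41.9 and 40.3 CPM (0.17, 95% CI -0.12 to 0.45). The log2 ratio of Lamb2 to Lamb1 within a library was 3.08, 2.95 and 2.61 in the labelled Ctrl libraries and 2.18, 2.34 and 2.19 in the labelled cKO libraries. It was lower in every labelled cKO library, by a difference of -0.65 (exact two-sided permutation p = 0.1, adjusted p = 0.2). Lamc1, the gamma chain of most laminins, measured 171 to 193 CPM and 144 to 178 CPM, with overlap (-0.16, 95% CI -0.41 to 0.09).

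None of the linkers of the basement membrane passed. Nid1, nidogen, measured 147, 135.5 and 134 CPM in the labelled Ctrl libraries and 130.5, 122 and 118 CPM in the labelled cKO libraries, and Hspg2, perlecan, measured 286, 313 and 333 CPM and 258, 282 and 281 CPM. Both were higher in every labelled Ctrl library, by differences too small to pass (-0.17, adjusted p = 0.158, and -0.19, adjusted p = 0.179). Nid2 measured 11.2, 12.5 and 16.2 CPM and 15.7, 19.6 and 14.9 CPM, with Ctrl 3 above the lowest library labelled cKO (0.33, 95% CI -0.06 to 0.73). Endothelial markers, for comparison, summed to 647 to 683 CPM and 594 to 608 CPM, and 2 of the 10 were higher in the labelled Ctrl libraries (all genes 11.8%).

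Of the 7 intracellular adhesion proteins, Zyx and Parva (28.6%, all genes 11.8%) were higher in the labelled Ctrl libraries and 5 did not pass. Zyx, zyxin, a LIM protein of stretched actin bundles (chr6:42349630-42360213), measured 40.5, 38.6 and 45.2 CPM and 31.4, 31.9 and 27.0 CPM (-0.46, SE 0.10, adjusted p = 0.0169), and the call was lost without Ctrl 1 (adjusted p = 0.0544). Parva, alpha-parvin, which binds integrin-linked kinase (Ilk) and actin (chr7:112427505-112591692), measured 31.5, 28.9 and 30.9 CPM and 20.9, 25.3 and 21.1 CPM (-0.44, SE 0.10, adjusted p = 0.0196). Its groups were apart, and the call was lost without Ctrl 1, cKO 1 or cKO 3 (adjusted p up to 0.0731). Ilk measured 54.0, 54.3 and 56.0 CPM and 49.95, 51.6 and 51.4 CPM, a small difference with no overlap that did not pass (-0.10, 95% CI -0.25 to 0.04). Since 89.7% of the exon length of Ilk overlaps Rrp8 or Taf10 on the opposite strand, and use of strand in counting is not given in the sources used here, reads of these genes could not be told apart from its own.

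The talins, vinculin and paxillin did not pass. Tln1, the talin of most cells, measured 181, 201.5 and 205 CPM in the labelled Ctrl libraries and 185, 159 and 178 CPM in the labelled cKO libraries (-0.17, 95% CI -0.39 to 0.05), and Tln2, the other talin, found at costameres of muscle, measured 188, 160 and 162 CPM and 223, 186 and 217 CPM (0.30, 95% CI 0.05 to 0.55, adjusted p = 0.0829). Each overlapped between groups, but their log2 ratio, Tln2 over Tln1, was 0.05, -0.33 and -0.34 in Ctrl 1, 2 and 3 and 0.27, 0.23 and 0.28 in cKO 1, 2 and 3. The ratio was thus higher in every labelled cKO library, by 0.47 (exact two-sided permutation p = 0.1, adjusted p = 0.2). Vcl, vinculin, which reinforces the talin-actin link, measured 105 to 143 CPM and 107 to 129 CPM (-0.06, 95% CI -0.36 to 0.25), and Pxn, paxillin, an adhesion scaffold, measured 126 to 148 CPM and 125.5 to 153 CPM (0.05, 95% CI -0.19 to 0.30). Exons of Vcl overlap Ap3m1 over 25.5% of their length.

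Ratios between related genes of a library do not depend on its scaling. Of the 12 ratios, 6 did not overlap between groups, namely Tln2 to Tln1, Lamb2 to Lamb1, Itga7 to Itga5, Parvb to Parva, Ilk to Parva and Zyx to Vcl, each at the smallest exact permutation p of 0.1 (adjusted p = 0.2), so none could pass 0.05. Single genes were apart for 21.9% (labelled Ctrl higher) and 22.0% (labelled cKO higher) of all genes, and no share was computed over other ratios. All of these ratios but Tln2 to Tln1 hold a gene that passed by itself, so they are not separate results. Parvb, beta-parvin, the other parvin of muscle, was higher relative to Parva in the labelled cKO libraries by 0.31, and Ilk relative to Parva by 0.34. The ratio of Zyx to Vcl was lower by a log2 difference of -0.41. The other 6 overlapped, with differences of 0.51 for Nid2 to Nid1, 0.66 for Lims2 to Lims1 (the genes of the PINCH proteins that bind Ilk), 0.40 for Lama5 to Lama4, -0.39 for Itga7 to Itga6, 0.20 for Lama2 to Lama4 and -0.04 for Itga7 to Itgb1.

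**Figure D4:**
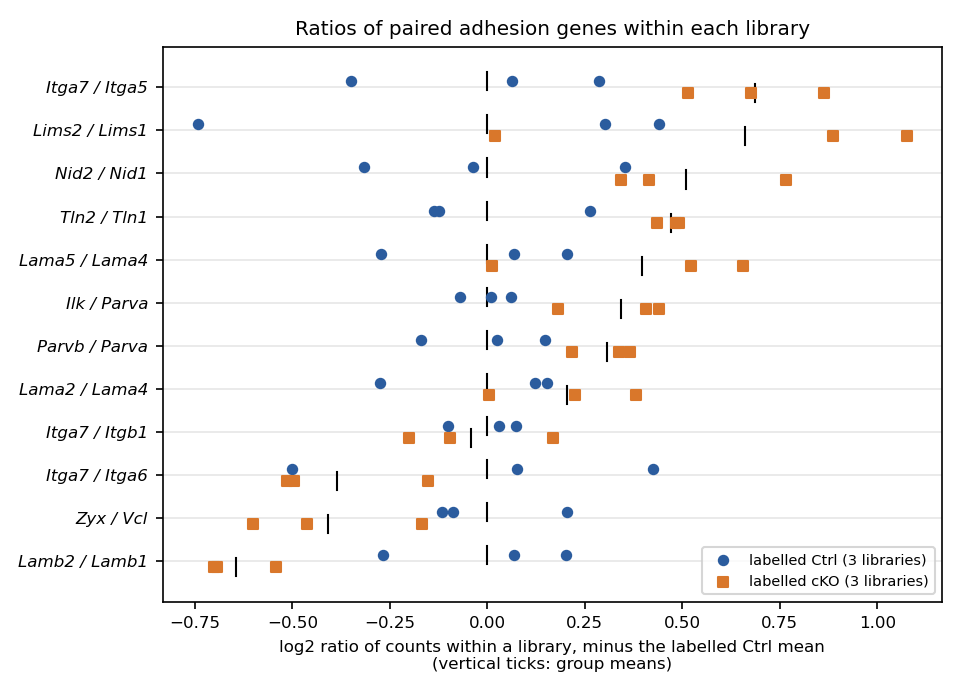
Log2 ratios of counts between related genes within each library, less the mean of the labelled Ctrl libraries, with 1 point per library (blue circles labelled Ctrl, orange squares labelled cKO) and ticks at group means. The groups are apart for 6 ratios, with means that differ by -0.65 for Lamb2 to Lamb1 and 0.47 for Tln2 to Tln1, and overlap for 6, among them Itga7 to Itgb1. Single genes were apart for 21.9% (labelled Ctrl higher) and 22.0% (labelled cKO higher) of all genes.

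Promoter windows were searched for motifs of factors known to act on adhesion genes. RefSeq windows of GRCm38.p6 (the assembly of mm10), from 250 bases before to 50 after a gene's start, were given for 29 of the 45 genes and 10 of the 17 that passed. All motifs were searched on both strands. The AP-1 motif TGANTCA was found in 7.81% of 32851 windows and for 3 of the 29 genes, Itga3, Itga9 and Zyx. The TEAD motif GGAATG was found in 14.7% of windows and for 5 of the 29 genes, Itga10, Itgb1, Lamb3, Nid1 and Vcl. The CArG box of serum response factor was found in 1.63% of windows and for 3 of the 29 genes, Itgb6, Lama2 and Vcl. Of the 10 genes that passed, 2, 2 and 1 had the AP-1, TEAD and CArG motif. The percentages are of windows and the counts are of genes, so they are not in the same units. A match is a description of these letters and not a site of binding. One window per motif is printed for a gene that passed, 5' to 3' on the strand of the gene, with the match in capitals, for Zyx (chr6:42349578-42349877, plus strand, AP-1 motif starting at -121), Lamb3 (chr1:193301993-193302292, plus strand, TEAD motif on the opposite strand starting at -167) and Itgb6 (chr2:60673644-60673943, minus strand, CArG box starting at -50). These distances are from the start that RefSeq gives. The windows of Lamb3 and Itgb6 lie inside the longer genes of the GENCODE annotation, and the RefSeq start of Zyx lies inside its GENCODE gene too, so these are not the starts of the gene coordinates given above.
Zyx: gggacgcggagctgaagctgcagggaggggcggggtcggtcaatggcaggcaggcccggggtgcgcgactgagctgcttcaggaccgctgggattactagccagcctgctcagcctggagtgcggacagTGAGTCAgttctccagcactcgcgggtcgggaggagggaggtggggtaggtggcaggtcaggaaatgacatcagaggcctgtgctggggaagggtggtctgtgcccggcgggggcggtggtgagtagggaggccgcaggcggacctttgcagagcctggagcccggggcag
Lamb3: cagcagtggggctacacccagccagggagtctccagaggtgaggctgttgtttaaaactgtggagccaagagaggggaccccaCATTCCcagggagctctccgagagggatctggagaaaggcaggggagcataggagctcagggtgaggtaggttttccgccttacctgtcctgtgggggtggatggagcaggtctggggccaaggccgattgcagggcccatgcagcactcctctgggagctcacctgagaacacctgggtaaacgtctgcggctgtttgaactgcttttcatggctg
Itgb6: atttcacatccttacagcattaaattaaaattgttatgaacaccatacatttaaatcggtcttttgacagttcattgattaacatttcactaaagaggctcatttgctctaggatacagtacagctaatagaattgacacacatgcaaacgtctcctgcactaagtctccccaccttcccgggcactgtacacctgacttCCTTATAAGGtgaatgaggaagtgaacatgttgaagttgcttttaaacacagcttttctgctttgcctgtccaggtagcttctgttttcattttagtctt

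Other genes of the pathway were read from lists made by hand. Of 50 adhesion adaptors and kinases, 49 were tested (Fermt1, the kindlin of epithelia, had 0 counts in all libraries), and 13 (26.5%, all genes 11.8%) were higher in the labelled Ctrl libraries and 8 (16.3%, all genes 12.6%) in the labelled cKO libraries, with a median log2 fold change of -0.23. Scaled to total counts, 23 and 3 passed (all genes 28.7% and 4.75%). The count of 13 became 6 without cKO 3 (all genes 5.46%), 7 without Ctrl 1 (all genes 5.63%) and 8 without cKO 1 (all genes 6.18%). The count of 8 became 3 without Ctrl 1, Ctrl 2, cKO 1 or cKO 3 (all genes 5.33% to 6.2%). The 8 with the lowest p among those that passed kept their calls without any 1 library, and they went both ways.

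Enah, a regulator of actin assembly, measured 144, 140 and 201 CPM in the labelled Ctrl libraries and 63.8, 64.7 and 53.7 CPM in the labelled cKO libraries (-1.41, SE 0.16, adjusted p = 0.00285). Sorbs2, a Z-disc adaptor, measured 41.0, 52.3 and 44.7 CPM in the labelled Ctrl libraries and 147, 103 and 125 CPM in the labelled cKO libraries, the opposite direction (1.44, SE 0.15, adjusted p = 0.0023). Pdlim7 and Nexn, both found at the Z-disc, were higher in the labelled cKO libraries too (0.79, adjusted p = 0.00623, and 0.70, adjusted p = 0.00835). Lims1, the partner of Ilk, measured 108.5, 104 and 138 CPM and 49.3, 73.0 and 53.6 CPM (-0.996, SE 0.17, adjusted p = 0.00909). Fermt3, the kindlin of blood cells, and Fyn, a kinase of the Src family, were lower in the labelled cKO libraries (-0.94, adjusted p = 0.00835, and -0.62, adjusted p = 0.0106). Fermt2, a far more abundant kindlin here, was higher in the labelled cKO libraries, at means of 230 and 308 CPM (0.42, adjusted p = 0.0213). Its call was lost without Ctrl 1, Ctrl 2, cKO 1 or cKO 3.

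Of 25 ligands and receptors that anchor muscle fibers, 9 (36.0%, all genes 11.8%) were higher in the labelled Ctrl libraries and 1 (4.0%, all genes 12.6%), the collagen IV chain Col4a4, in the labelled cKO libraries (0.72, adjusted p = 0.038, lost without any library other than Ctrl 3), with a median log2 fold change of -0.34. Ligands of some integrins above were among the 9, while others of the list did not pass. Fn1, fibronectin, the ligand of Itga5, measured 158, 154 and 193 CPM in Ctrl 1, 2 and 3 and 68.6, 106 and 70.4 CPM in cKO 1, 2 and 3 (-1.04, SE 0.19, adjusted p = 0.00955). Spp1, osteopontin, a ligand of Itga9, was low, at 1.79 to 2.46 CPM and 0.591 to 0.847 CPM (-1.63, SE 0.24, adjusted p = 0.0057). Postn, periostin, a matrix protein of fibroblasts, measured 30.2, 35.9 and 54.3 CPM and 5.98, 11.3 and 5.68 CPM (-2.39, SE 0.33, adjusted p = 0.00459), and Tnxb, tenascin-X, measured 172, 178 and 160 CPM and 96.7, 84.2 and 102 CPM (-0.85, SE 0.10, adjusted p = 0.00293). Fn1, Spp1, Postn and Tnxb were each apart between the groups, and each call held without any 1 library. Other ligands had overlapping groups and did not pass. Among them were Tnc, a tenascin (0.21, adjusted p = 0.779), Vtn, vitronectin (0.21, adjusted p = 0.389), and Npnt, nephronectin (-0.58, adjusted p = 0.148).

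Receptors and other ligands of the list differed less. Bcam, a receptor of Lama5, had a log2 fold change of -0.73 (SE 0.11, adjusted p = 0.00522) and Sspn, sarcospan of the dystrophin complex, of -0.42 (SE 0.07, adjusted p = 0.00728), both in all of the fits without 1 library. Agrn, agrin, which binds dystroglycan and laminin, had -0.34 (SE 0.07, adjusted p = 0.0124, lost without Ctrl 1 or cKO 3). Itgav, the alpha partner of Itgb5 and Itgb6, measured 40.7, 36.0 and 41.7 CPM and 28.8, 32.9 and 29.6 CPM (-0.38, SE 0.09, adjusted p = 0.0249, lost without Ctrl 1, Ctrl 3, cKO 1 or cKO 3), so it lay on the side of Itgb6 and not of Itgb5.

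Markers of the other cells of muscle moved with the labelled groups in part, and their counts below stand against 11.8% of all genes higher in the labelled Ctrl libraries and 12.6% higher in the labelled cKO libraries. Of 10 markers of fibro-adipogenic progenitors, which make much of the matrix, 5 were higher in the labelled Ctrl libraries, and their sums were 1352, 1324 and 1607 CPM in Ctrl 1, 2 and 3 and 924, 1494 and 1164 CPM in cKO 1, 2 and 3. Mural cell markers summed to 840 to 913 CPM and 839 to 896 CPM (3 of 10 higher in the labelled Ctrl libraries, 1 in the labelled cKO libraries), satellite cell markers to 136 to 184 CPM and 114 to 137 CPM (1 of 8 in each direction, near the shares of all genes) and adipocyte markers to 189 to 221 CPM and 187 to 230 CPM (0 of 6). Markers of tendon and of the myotendinous junction, where integrins and laminins are dense, summed to 401 to 415 CPM in the labelled Ctrl libraries and to 203, 847 and 477 CPM in cKO 1, 2 and 3, and 2 of the 10 were higher in the labelled cKO libraries. Both calls, Kera and Col22a1, were lost without any library other than cKO 1. The tendon sums were spread widely, with cKO 1 below and cKO 2 above every labelled Ctrl library. The part of these cells in the values above was not tested.

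**Figure D5:**
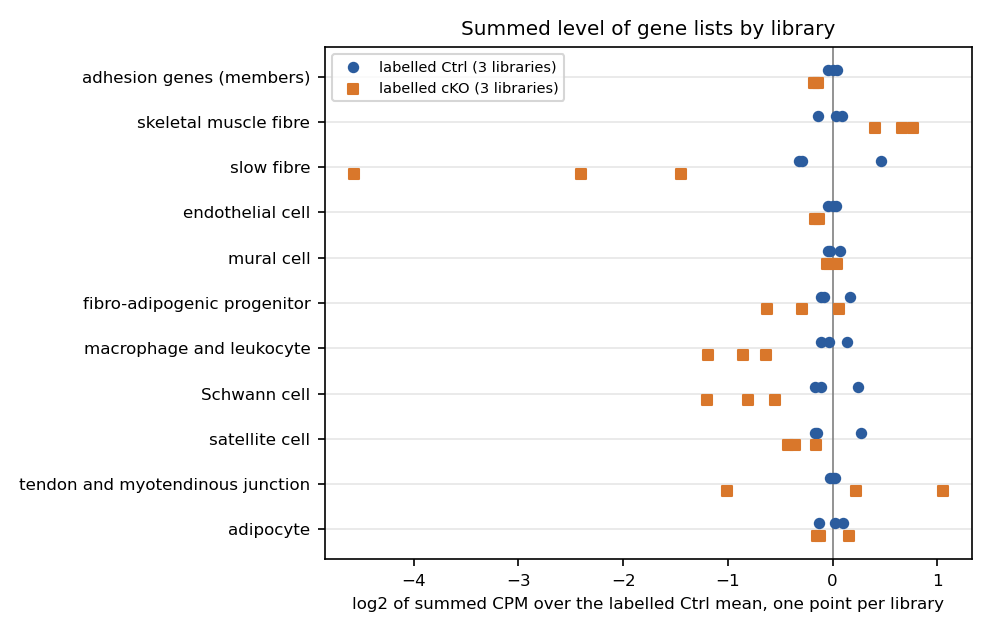
Summed CPM of each list of cell type markers, and of the 45 adhesion genes, in each library, as log2 over the mean of the labelled Ctrl libraries (blue circles labelled Ctrl, orange squares labelled cKO). Slow fiber markers (8481 to 14600 against 446.5 to 3873 CPM) and macrophage and leukocyte markers (149 to 177 against 70.9 to 104 CPM) are lower in every labelled cKO library, while tendon markers run from 203 to 847 CPM within the labelled cKO libraries.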

How the data were processed

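RNA-Seq libraries were made with the KAPA mRNA Hyperprep kit from GP muscle of 3 mice per labelled group. According to the submitters' processing notes, reads were handled with FastQC 0.11.8, Trimmomatic 0.39, HISAT2 2.1.0 (mm10) and featureCounts 1.6.2, and the authors deposited raw counts per gene. The annotation and the use of strand in counting are not given in the sources used here. The test was the quasi-likelihood test of edgeR 4.0.16 in R 4.3.3 (TMM scaling, filterByExpr, Benjamini-Hochberg over 14180 genes). DESeq2 1.42.0, other scalings and filters, a replicate block and leaving out each library were alternatives. Standard errors came from the F statistic. CPM used TMM library sizes, and levels per kb used GENCODE M21 exons (all 45 genes matched). P-values of edgeR set the group difference against a spread between mice that was estimated with information shared across genes. Libraries of a group differed by a chi-square of 29.5 to 101 per degree of freedom, well beyond counting error. Genes and lists were chosen with earlier results of these data known. Named in full were all selected genes that passed, 19 preset adhesion genes and, from each of the 2 pathway lists, the 8 with the lowest p among those that passed. A few other genes of the lists are named for comparison. The scripts were tested on simulated data. Some genes that these rules would name are not reported here.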

Additional observations from a re-analysis of the deposited data

How the results depend on the processing

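DESeq2 size factors and a minimum of 10 counts kept all 17 calls, DESeq2's Wald test added Itgb3 and Tln2, and testing without a filter lost Itgb6 and Itgb1 (adjusted p = 0.0507 and 0.0693). With at least 10 counts in every library or with DESeq2, 2 ligands and receptors instead of 1 were higher in the libraries labelled cKO. Scaling to total counts (all genes 28.7% Ctrl higher and 4.75% cKO higher) gave 23 and 1 genes, 7 and 0 with a fold over 2, 23 and 3 adaptors, 0 ligands higher in cKO and a median of -0.43, and it reversed Lama2 (-0.19), Lamb1 (-0.088), Lama3 (-0.23), Itga6 (-0.24) and Pxn (-0.21), none of which passed. Replicate numbers did not pair the samples (correlations 0.08, -0.21 and 0.00 for the numbers 1, 2 and 3, and only Ctrl 1 correlated best with its own number). A replicate block gave 6 genes higher in Ctrl (all genes 6.85%) and 2 in cKO (all genes 6.54%), 8 and 3 adaptors and 0 ligands higher in cKO, called 13.4% of all genes, and put Lama3 at -0.069. Leaving out 1 library gave 4 to 15 genes higher in Ctrl and 0 to 2 in cKO, 2 to 6 and 0 to 2 with a fold over 2, 6 to 16 and 3 to 7 adaptors and 0 to 1 ligands higher in cKO, while 10.8% to 24.8% of all genes passed. Of the 102 such values of the genes that passed, 48 kept the call and 54 lost it, with no change of sign. Values that changed sign ranged from -0.10 to 1.04 for Itga2, -0.28 to 0.074 for Itga1, -0.16 to 0.059 for Vcl, -0.39 to 0.27 for Lama3, -0.14 to 0.27 for Itga6, -0.032 to 0.125 for Pxn and -0.147 to 0.037 for the ratio of Itga7 to Itgb1. The cause of these changes was not tested. Itga2 and Itgb8 had few counts, which limits what can be said of them.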
